A study of Homo sapiens with 6 samples.

Results

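The genes that make, protect and remove replication-dependent histone mRNAs were examined in RNA-seq of human cells overexpressing catalytically dead DIS3L2. The 8 genes were taken by name: RNU7-1, LSM10, LSM11, SLBP, ERI1, ZNF473, NPAT and CASP8AP2. All 8 matched, out of 63190 genes in the table, and their 41 transcripts stood among 207167. The D391N group consisted of 3 libraries of HEK293 cells overexpressing DIS3L2 D391N, a substitution in the catalytic site of this 3′ to 5′ exoribonuclease, and the control group of 3 libraries of HEK293 cells labelled as control. HEK293 is an embryonic kidney line, used here as its T-Rex derivative in which doxycycline induces an integrated, Flag-tagged construct. Whether the controls of the RNA-seq received doxycycline is not given in the sources used here. All D391N libraries came from 1 stable line and all controls from another, so construct and line cannot be told apart. The labels do not say whether the replicates were separate cultures, so the p-values measure the spread between these libraries, which may be technical.

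Replication-dependent histone mRNAs are the metazoan mRNAs that end in a stem-loop in place of a poly(A) tail. Histone genes are transcribed in S phase in the histone locus body, where NPAT and CASP8AP2 reside. SLBP binds the stem-loop, and the U7 snRNP pairs with a purine-rich element downstream of it. The U7 particle carries a ring in which LSM10 and LSM11 replace a pair of spliceosomal Sm proteins, and ZNF473 (ZFP100) bridges SLBP and the particle. At the end of S phase the mRNA is removed: ERI1 trims the stem-loop, oligouridine is added and exonucleases digest the body. DIS3L2 degrades uridylated RNA.

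The sequences that these factors recognise or carry are shown first. The later comparisons concern the levels of whole genes and transcripts. In RNU7-1 the capitals mark the bases 12 to 17, which lie in the segment that pairs with the histone downstream element, and the bases 21 to 31, the Sm site on which the LSM10 and LSM11 ring assembles. In the histone transcripts the capitals mark the stem-loop bound by SLBP. The 3 shown belong to the histone genes with the highest mean gene sum among those with a stem-loop transcript. Sequences are those of GENCODE v44 transcripts lifted to GRCh37, 5′ to 3′, with T for U.
RNU7-1: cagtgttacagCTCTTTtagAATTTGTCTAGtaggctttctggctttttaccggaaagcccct
H1-4: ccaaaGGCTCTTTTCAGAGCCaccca
H1-2: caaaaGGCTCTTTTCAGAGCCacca
H2BC5: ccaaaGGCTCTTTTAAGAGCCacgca
The stem-loop pattern GGCNCTTTTNAGNGCC, searched on the transcript strand, was found in 57 of 62 replication-dependent histone genes (91.9%) and in 96 of 254413 annotated transcripts (0.0377%). A match describes letters only.

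The values were transcript levels in RPKM, reads per length of transcript and size of library, summed over the transcripts of each gene. Since the reads were divided among overlapping transcripts by an estimate, a second scale was used for the genes: RPM, a measure of reads relative to library size, in which each transcript's RPKM was multiplied by its length before summing. This scale was meant to depend less on how reads are divided among isoforms of known length. It is not free of that division, since the values summed were exponentials of posterior mean logs. The lengths came from a GRCh37 annotation, whereas the reads were mapped to hg38 transcripts. RPM left out 1 ERI1 transcript of unknown length that was at or under 0.374 RPKM in every library. Estimated depth was 18.8 to 31.2 M reads per library. The line carried its usual markers VIM (110 to 177 RPKM over the 6 libraries), KRT8 (98.6 to 180 RPKM), KRT18 (26.5 to 40.7 RPKM) and LIN28B (15.8 to 31.9 RPKM), while NEFM stayed at or under 0.638 RPKM. VIM, KRT8 and KRT18 lay wholly lower in D391N (log2 differences −0.43, −0.69 and −0.27) and LIN28B wholly higher (0.54). None of these was called on summed RPKM, and KRT8 was called in RPM (log2 difference −0.66, limma adjusted p = 0.0392). Of the markers of other cell types, PTPRC reached 1.77 RPKM and ALB 1.13 RPKM, and CD3E, HBA1 and DES stayed at or under 0.658 RPKM. DIS3L2, which counts construct and endogenous reads together, was at 369, 467 and 512 RPKM in the D391N libraries, against 11.8, 12.9 and 14.6 RPKM in the controls, in the order of replicates 1 to 3 that is kept throughout, and rose by 5.08 on the log2 scale (SE 0.18, limma adjusted p = 0.000268). In RPM its log2 difference was 2.92.

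At the gene level none of the 8 factors passed the threshold of an adjusted p under 0.05 (limma on log2 of the summed RPKM plus 0.1, Benjamini-Hochberg over all 20714 genes tested). The background was 0.14% of genes, 29 in all. That count was 2267 without D391N replicate 1, 11 without D391N replicate 2 and 2 without any other library, and it held none of the 8 in each case. The adjusted p of the 8 ranged from 0.183 to 0.972. An unadjusted p under 0.05 was reached by 2 of the 8, ERI1 and NPAT, where 22.7% of all genes reached it. All 3 D391N libraries lay above all 3 control libraries for ERI1 and NPAT, and below them for LSM11, and the groups overlapped for the other 5. Among all genes 10.5% lay wholly above and 20.7% wholly below. The median log2 difference (D391N minus control) of the 8 genes was 0.19 and that of all genes tested was −0.090, with 57.3% of all genes below 0. In bulk RNA, fewer cells of a kind and less RNA per cell cannot be told apart.

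Scaling mattered for small differences. Centring each library on its median moved the median of all genes by 0.22 on the log2 scale, to 0.13, and quantile normalization moved it by 0.17. ZNF473 changed direction under both, and the other 7 kept theirs.

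**Figure D1:**
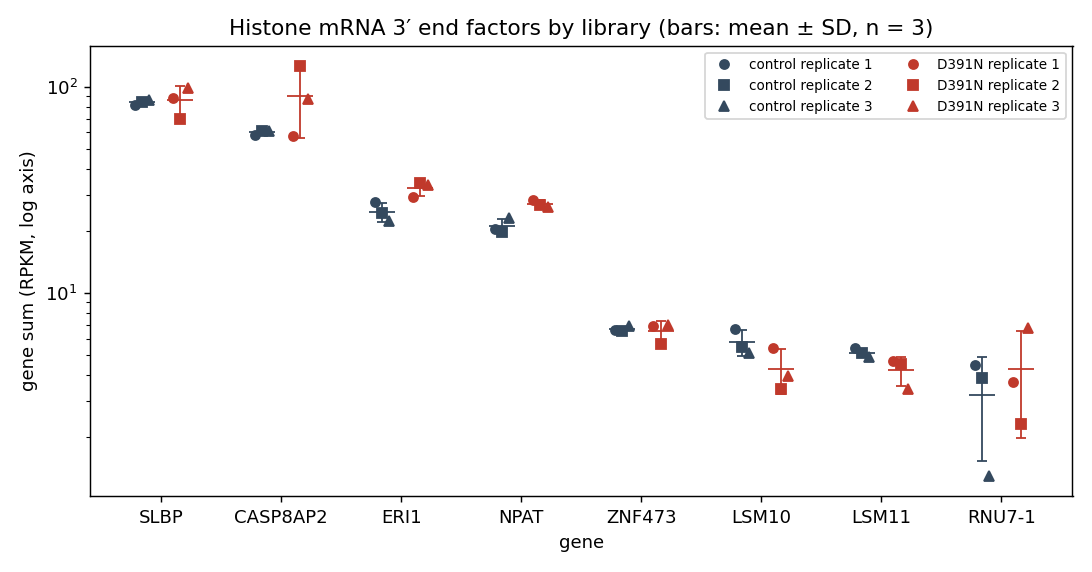
Gene sums of RPKM (log axis) of the 8 factors in each library, with group means and SD bars (n = 3). The D391N libraries of ERI1 and NPAT sit above all control libraries, those of LSM11 below, and RNU7-1 is spread from 1.30 to 6.77 RPKM.

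In control cells SLBP had the highest level of the 8, at 84.1 ± 2.23 RPKM (SD, n = 3), followed by CASP8AP2 at 60.1 ± 1.66 RPKM, ERI1 at 24.8 ± 2.60 RPKM and NPAT at 21.1 ± 1.79 RPKM. The U7 components were lower: ZNF473 at 6.70 ± 0.16 RPKM, LSM10 at 5.77 ± 0.83 RPKM, LSM11 at 5.13 ± 0.26 RPKM and RNU7-1 at 3.22 ± 1.69 RPKM. The control ranges of the neighbours ERI1 and NPAT, ZNF473 and LSM10, and LSM10 and LSM11 overlapped. In D391N cells the neighbours whose ranges overlapped were others in part. They were SLBP (85.8 ± 14.6 RPKM) and CASP8AP2 (90.2 ± 34.0 RPKM), LSM10 and LSM11, and LSM11 and RNU7-1. The D391N ranges of ERI1 and NPAT and of ZNF473 and LSM10 did not overlap.

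RNU7-1 (ENSG00000238923; GRCh37 annotation, chromosome 12, 7052979 to 7053041, + strand), the RNA of the U7 particle, was at 3.71, 2.31 and 6.77 RPKM in D391N and 4.48, 3.87 and 1.30 RPKM in control libraries. The groups overlapped, with the highest value in D391N replicate 3 and the lowest in control replicate 3. By the posterior variance these levels rested on the equivalent of 0.48 to 8.51 reads, so that the level of this 63 nt RNA was barely measured. The log2 difference was 0.44 (SE 0.56, 95% interval −0.90 to 1.77, limma adjusted p = 0.678) and turned to −0.10 without control replicate 3. The interval spans differences in either direction, so neither a rise nor a fall can be read from these libraries. RNU7-1 lies on the same strand within the span of C12orf57, whose level was 9.80, 7.71 and 14.5 RPKM in D391N libraries and 24.1, 23.0 and 23.7 RPKM in control libraries (log2 difference −1.19, SE 0.24, limma adjusted p = 0.0881). In RPM C12orf57 passed the threshold (log2 difference −1.16, limma adjusted p = 0.0438), where 3.49% of all genes did. Whether reads of the host transcript entered the RNU7-1 value was not tested. Of the 149 U7 pseudogene copies, 143 had under 3 equivalent reads in every library. The sum over RNU7-1 and its copies was 83.2, 102 and 73.7 RPKM in D391N and 63.0, 62.3 and 78.6 RPKM in control libraries, overlapping groups with a two-sided exact permutation p = 0.20 (the smallest possible is 0.10). Only 5 of these 150 genes had a mean of at least 1 RPKM, so the sum came mostly from values near the floor. It was highest at the lowest estimated depth (D391N replicate 2, 18.8 M reads) and lowest at the highest (control replicate 2, 31.2 M reads). The sum therefore cannot be read as a U7 level. Reads of near-identical copies may be divided among them, so the split between RNU7-1 and its copies is uncertain.

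LSM10 and LSM11 are the ring proteins specific to U7. LSM10 (ENSG00000181817; chromosome 1, 36856839 to 36863509, − strand) was at 5.44, 3.41 and 3.98 RPKM in D391N and 6.71, 5.48 and 5.11 RPKM in control libraries. D391N replicate 1 lay among the controls and the other D391N libraries below them. Its log2 difference was −0.44 (SE 0.23, 95% interval −0.98 to 0.11, limma adjusted p = 0.294), from an estimated 53.2 to 169 reads a library. The coding transcript ENST00000315732 made up 65.6%, 28.6% and 67.8% of the gene sum in D391N libraries (mean 54.0%). In control libraries it made up 73.5%, 77.1% and 67.4% (mean 72.7%), with overlap and an exact permutation p = 0.20. The low share belongs to D391N replicate 2, where this transcript rested on the equivalent of 9.89 reads.

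LSM11 (ENSG00000155858; chromosome 5, 157170720 to 157187717, + strand), with 1 listed transcript, was at 4.68, 4.52 and 3.44 RPKM in D391N and 5.39, 5.11 and 4.88 RPKM in control libraries. All D391N libraries were lower than all controls, by a small margin. Its difference on the log2 scale was −0.29 (SE 0.19, 95% interval −0.74 to 0.16, limma adjusted p = 0.396), and it shrank to −0.069 with median centring and −0.040 with quantile normalization.

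ZNF473 (ENSG00000142528; chromosome 19, 50528971 to 50556671, + strand) was at 6.93, 5.69 and 7.02 RPKM in D391N and 6.65, 6.58 and 6.88 RPKM in control libraries. The D391N values lay on both sides of the narrow control range. With a 95% interval of −0.42 to 0.34, the log2 difference was −0.040 (limma adjusted p = 0.907) and became 0.18 with median centring. Its 2 tested transcripts are both coding. ENST00000445728 was at 0.963 RPKM in control replicate 1 and between 2.68 and 3.41 RPKM in the other 5 libraries. ENST00000270617 had its highest value in that same library, 3.40 RPKM, and lay between 0.786 and 1.94 RPKM in the other 5.

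SLBP (ENSG00000163950; chromosome 4, 1694458 to 1714071, − strand), the stem-loop binding protein, was at 88.2, 70.1 and 99.0 RPKM in D391N and 81.7, 84.5 and 86.2 RPKM in control libraries. The D391N libraries spread on both sides of the controls, and the log2 difference was 0.014 (SE 0.17, 95% interval −0.39 to 0.42, limma adjusted p = 0.972). In RPM the same gene was at 84.0, 96.2 and 106 in D391N and 80.0, 76.3 and 76.2 in control libraries, without overlap. The log2 difference on that scale was 0.29 (95% interval −0.0060 to 0.59, limma adjusted p = 0.192). The scales weight transcripts of unlike length differently, so the SLBP transcripts were examined 1 by 1.

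The coding SLBP transcript ENST00000318386 (1635 nt, 8 exons) was at 29.6, 47.8 and 42.5 RPKM in D391N and 25.03, 16.7 and 19.8 RPKM in control libraries. Every D391N value lay above every control value, with a log2 difference of 0.95 (SE 0.29, 95% interval 0.26 to 1.64, limma adjusted p = 0.196 over 54671 transcripts). Its share of the SLBP sum was 33.6%, 68.2% and 43.0% in D391N and 30.6%, 19.7% and 22.9% in control libraries (exact permutation p = 0.10, the smallest possible). Without D391N replicate 1, the D391N library in which this share was lowest, its log2 difference was 1.16 and its limma adjusted p was 0.0495. No other transcript of the 8 genes passed the threshold under an alternative. In this setting 4984 of all transcripts passed, against 33 with all libraries. ENST00000480936, a 558 nt transcript annotated as coding over its whole length, shares bases of exons 1 to 6 of the 8-exon form and none of exons 7 and 8. It was at 55.7, 16.8 and 51.3 RPKM in D391N and 49.5, 56.4 and 60.1 RPKM in control libraries. The low value belongs to D391N replicate 2, which had the highest value of the 8-exon form. Whether splicing or the division of reads between these overlapping transcripts differed there was not tested. The log2 difference of ENST00000480936 was −0.60 (SE 0.48, limma adjusted p = 0.535). ENST00000429429, which skips exon 2 (117 nt) of the 8-exon form and has 60 of the 81 nt of exon 4, was at 2.20, 3.62 and 2.93 RPKM in D391N and 5.57, 9.57 and 4.29 RPKM in control libraries. All D391N values were lower, but they rested on under 3 equivalent reads each. The difference was −1.07 on the log2 scale (SE 0.37, limma adjusted p = 0.229).

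**Figure D2:**
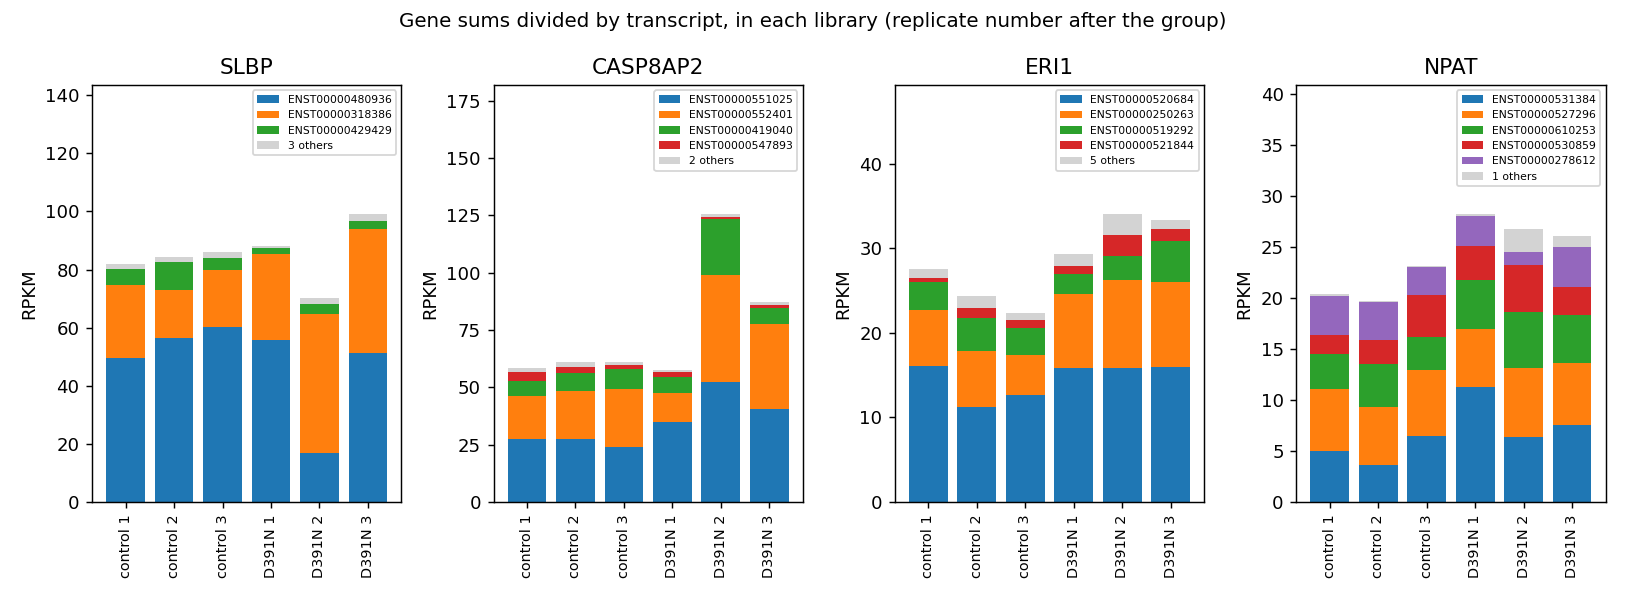
RPKM of SLBP, CASP8AP2, ERI1 and NPAT in each library, with the transcripts tested stacked in color and all others in grey. In SLBP the 8-exon ENST00000318386 occupies 29.6 to 47.8 RPKM of the D391N bars and 16.7 to 25.03 RPKM of the control bars.

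ERI1 (ENSG00000104626; chromosome 8, 8859657 to 8974256, + strand), the exonuclease that trims the stem-loop, was at 29.3, 34.0 and 33.3 RPKM in D391N and 27.5, 24.4 and 22.4 RPKM in control libraries. The D391N libraries were all higher. The log2 difference was 0.38 (SE 0.15, 95% interval 0.033 to 0.73, unadjusted p = 0.036, limma adjusted p = 0.193), and 0.50 in RPM (limma adjusted p = 0.0861). Its 4521 nt coding transcript ENST00000250263 was at 8.75, 10.5 and 10.0 RPKM in D391N and 6.72, 6.60 and 4.74 RPKM in control libraries. The groups did not overlap, and the log2 difference was 0.70 (SE 0.25, limma adjusted p = 0.236). The nonsense-mediated decay transcript ENST00000520684, which held the largest share of ERI1, was at 15.80, 15.81 and 15.99 RPKM in D391N and 16.03, 11.2 and 12.7 RPKM in control libraries, with overlap (log2 difference 0.27, SE 0.23). The coding form made up 30.2% of the sum in D391N and 24.2% in control libraries (exact permutation p = 0.10).

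NPAT (ENSG00000149308; chromosome 11, 108027942 to 108093365, − strand), the cyclin E/CDK2 substrate that drives histone transcription, was at 28.2, 26.8 and 26.1 RPKM in D391N and 20.4, 19.7 and 23.1 RPKM in control libraries. All D391N libraries lay above all controls. The log2 difference was 0.36 (SE 0.13, 95% interval 0.043 to 0.68, unadjusted p = 0.031, limma adjusted p = 0.183). In RPM the groups overlapped, at 54.7, 49.1 and 58.2 against 49.1, 51.1 and 46.4, with a log2 difference of 0.14 (limma adjusted p = 0.511). The longest coding transcript, ENST00000278612, was at 2.89, 1.21 and 3.91 RPKM in D391N and 3.86, 3.70 and 2.71 RPKM in control libraries, with overlap. The 575 nt ENST00000531384, annotated for nonsense-mediated decay, was at 11.2, 6.36 and 7.53 RPKM in D391N and 5.003, 3.57 and 6.46 RPKM in control libraries, which overlapped only through D391N replicate 2. Its group means were 8.37 and 5.01 RPKM, where the gene sums had means of 27.1 and 21.1 RPKM, and its log2 difference was 0.73 (SE 0.34, limma adjusted p = 0.316). ATM, transcribed away from NPAT at the neighbouring promoter, was at 72.9, 86.9 and 75.6 RPKM in D391N and 66.6, 72.0 and 65.0 RPKM in control libraries, also without overlap (log2 difference 0.21, limma adjusted p = 0.418).

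CASP8AP2 (FLASH; ENSG00000118412; chromosome 6, 90539613 to 90584155, + strand), the U7 partner that recruits the cleavage complex, was at 57.7, 125 and 87.3 RPKM in D391N and 58.2, 61.0 and 61.2 RPKM in control libraries. D391N replicate 1 lay just under the controls and the other D391N libraries well above them. The log2 difference was 0.51 (SE 0.28, 95% interval −0.15 to 1.18, limma adjusted p = 0.312), and without D391N replicate 1 it was 0.80 with an adjusted p of 0.0503. In RPM it was at 246, 411 and 309 in D391N and 210, 216 and 196 in control libraries, which did not overlap, with a log2 difference of 0.60 (95% interval 0.16 to 1.04, limma adjusted p = 0.0968). Its longest coding transcript, ENST00000551025 (6088 nt), was at 34.9, 52.3 and 40.7 RPKM in D391N and 27.2, 27.4 and 24.1 RPKM in control libraries. Each D391N value was higher, and the log2 difference was 0.68 (SE 0.25, 95% interval 0.093 to 1.26, limma adjusted p = 0.239). The shorter coding transcripts ENST00000552401 and ENST00000419040 and the retained-intron transcript ENST00000547893 overlapped between groups.

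Of the 41 transcripts, 22 had a mean of at least 1 RPKM, and 0 of them passed an adjusted p under 0.05, where 0.0604% of all transcripts did. An unadjusted p under 0.05 was reached by 4, against 17.6% of all transcripts. All D391N libraries were higher than the controls for 4 and lower for 2, beside backgrounds of 10.1% and 15.6%. The 4 higher ones were the 8-exon form of SLBP, the longest coding form of CASP8AP2, ENST00000250263 of ERI1 and ENST00000610253 of NPAT. In RPM 3.49% of genes passed the threshold, and none of the 7 factors tested on that scale did. RNU7-1 had a mean under 1 RPM and was not tested there. On that scale SLBP, ERI1 and CASP8AP2 lay wholly above the controls and LSM11 below, beside 10.1% and 24% of all genes.

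**Figure D3:**
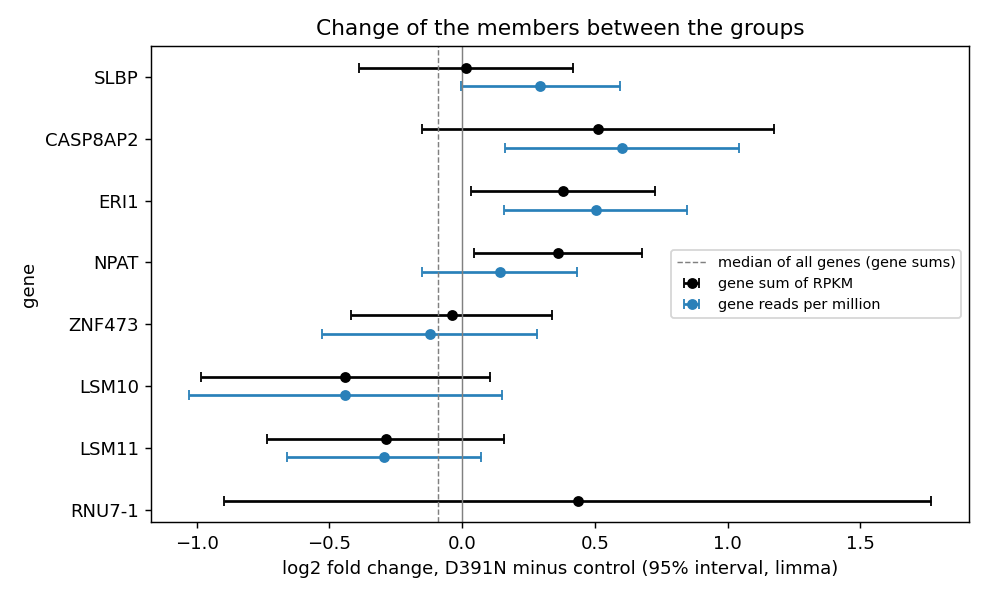
Log2 differences, D391N minus control, of the 8 factors with 95% intervals from limma, for summed RPKM and for RPM. The interval of SLBP runs from −0.39 to 0.42 in RPKM, and the dashed line marks the median of all genes at −0.090.

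The genes that work beside these factors were examined in 7 lists, of which only that of the histone genes held a gene called on summed RPKM. The counts of genes wholly above or below the controls stand beside 10.5% and 20.7% of all genes. Of the 7 Sm proteins, 0 lay wholly above and 3 wholly below the controls, and the median log2 difference was 0.028. SNRPD2, which is in the spliceosomal ring, was at 135, 49.8 and 93.4 RPKM in D391N and 212, 193 and 176 RPKM in control libraries (log2 difference −1.17). SNRPG was at −0.72 and SNRPB at −0.50 on the same log2 scale. In RPM these 3 stayed wholly below the controls, beside 24% of all genes. SNRPD1 lay wholly above them in RPM (log2 difference 0.71, limma adjusted p = 0.0940), beside 10.1% of all genes. Of the 14 cleavage and other 3′ end factors 1 lay above and 5 below, with a median of −0.020. The largest differences were those of INTS11 (−0.65), CPSF4 (−0.64) and CPSF1 (−0.51), CSTF2 (−0.46) following. In RPM CSTF2 was at −0.28, with overlapping groups. CPSF4 and CPSF1 passed the threshold in RPM (limma adjusted p = 0.0455 and 0.0352), beside 3.49% of all genes. Of the 12 partners and turnover factors of SLBP 0 lay above and 4 below, with a median of −0.17. MIF4GD, which links SLBP to translation, was at 5.61, 3.49 and 4.29 RPKM in D391N and 9.64, 9.15 and 8.84 RPKM in control libraries (log2 difference −1.05, limma adjusted p = 0.0881), DCAF11 was at −0.58 and CTIF at −0.52 on the log2 scale.

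Of the 11 histone locus body and transcription genes 3 lay above and 1 below, with a median of 0.11. CDK2 was at −0.72, GON4L at 0.47, COIL at 0.39 and cyclin E1 (CCNE1) at 0.39 on the log2 scale. In RPM GON4L was at 0.039, with overlapping groups. Of the 19 histone mRNA decay genes 3 lay above and 3 below, with a median of 0.085. TUT4, a terminal uridylyltransferase, was at 71.0, 121 and 121 RPKM in D391N and 67.7, 66.2 and 68.4 RPKM in control libraries (log2 difference 0.59), TUT1 was at −0.43, ERI3 at −0.37 and DCP2 at 0.37. In RPM TUT4 was at 0.35, with overlapping groups, and DCP2 at 0.16. For S phase, the setting of this pathway, 4 of 15 genes lay above and 2 below, with a median of 0.081. GINS2 was at −1.07, CDC6 at 0.66, MCM7 at −0.43 and POLA1 at 0.42 on the log2 scale. In RPM MCM7 turned to 0.14 and POLA1 was at 0.21, both with overlapping groups, and CDC6 was at 0.29. Their part in the values of the 8 factors was not tested. Median centring made those of the cleavage factors (0.20) and SLBP partners (0.049) positive, quantile normalization that of the cleavage factors (0.049), and RPM made those of the Sm proteins (−0.16) and S phase genes (−0.014) negative. With 1 library left out the median ran from −0.22 to 0.15 for the Sm proteins, from −0.20 to 0.026 for the cleavage factors and from −0.053 to 0.16 for the locus body genes.

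The differences of the histone mRNAs themselves were mostly negative. Of 62 replication-dependent histone genes 46 were tested, 44 of which had a negative log2 difference, 23 lay wholly below the controls and 1 above. Their median log2 difference was −0.92, against −0.090 for all genes. Differences moved with transcript length: genes whose most abundant transcript had up to 500 nt had a median of −0.34, with 22.2% wholly below, and those over 4000 nt a median of −0.0042. The 28 histone genes of up to 500 nt had a median of −0.99, with 17 wholly below, and the 15 of 500 to 1000 nt a median of −0.58, with 4 wholly below, where all genes of that length had −0.062 and 19.6%. The part of length in the histone values was not tested further. H2BC10 fell (limma adjusted p = 0.0282), from 4.79, 3.58 and 2.60 RPKM in control libraries to 0.0772, 0.0853 and 0.180 RPKM in D391N libraries, the latter under 3 estimated reads each. This call was lost when any 1 library other than D391N replicate 1 was left out. Without that library 12 histone genes passed, among 2267 genes in all. In RPM 4 of 45 histone genes tested passed the threshold, beside 3.49% of all genes. They were H2AC13, H4C5, H4C16 and H4C14, with log2 differences of −1.32, −0.97, −1.07 and −1.22 and limma adjusted p = 0.0222, 0.0380, 0.0395 and 0.0416. The stem-loop transcripts printed above had log2 differences at the gene level of −0.16 (H1-4), −0.26 (H1-2) and −1.16 (H2BC5), with no call. The log2 median of −0.92 for the histone genes was −0.70 with median centring, −0.80 with quantile normalization and −0.52 without D391N replicate 2. Their median deviation from the mean over the libraries was −1.13 in that library, −0.10 and −0.13 in the other D391N libraries and 0.59, 0.64 and 0.23 in the controls.

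**Figure D4:**
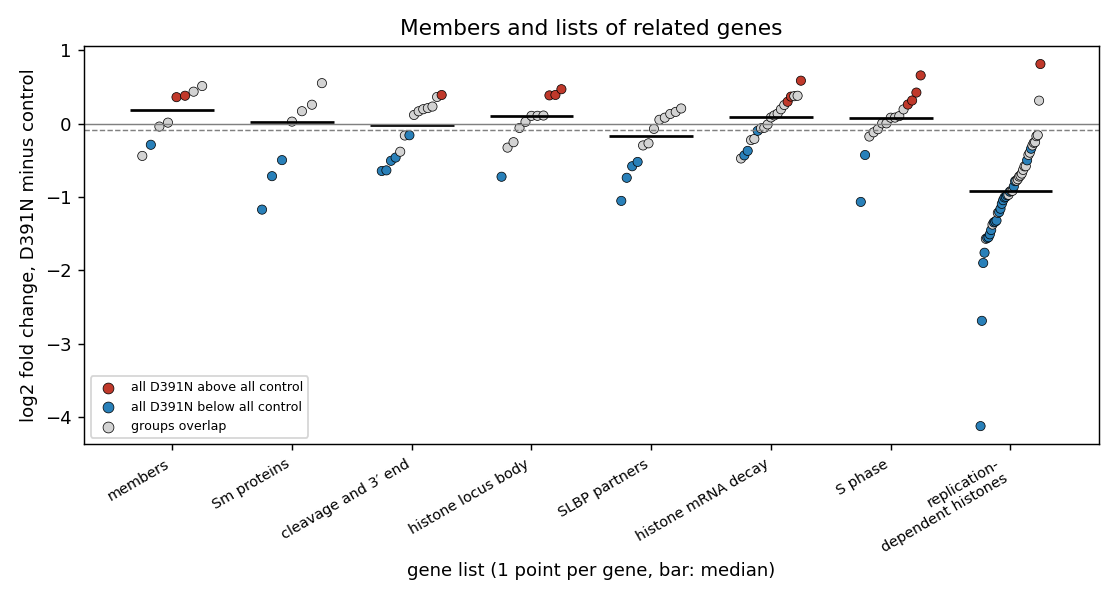
Log2 differences, D391N minus control, of each tested gene, by list, with the median as a bar. The 8 factors lie between −0.44 and 0.51, and the 46 replication-dependent histone genes have a median of −0.92.

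For RNU7-1 and SLBP the genes with the most similar course over the 6 libraries were sought among genes with a mean of at least 5 RPKM. HAUS1 (Pearson r 0.997), C12orf4 (0.995) and NAA20 (0.995) were closest to RNU7-1, where 198 of 11836 genes had r over 0.9. CGGBP1 (0.989), PRKAB2 (0.976) and UGCG (0.966) were closest to SLBP, where 34 of 11835 did. These points share library and depth, and the values are a description. They are the highest r of many genes over 6 points. The course of RNU7-1 rests on the equivalent of 0.48 to 8.51 reads a library, so likeness to it says little.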

How the data were processed

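Total RNA of 3 D391N and 3 control libraries was sequenced. The authors removed rRNA and adapters (cutadapt), mapped the reads to the Ensembl transcriptome, coding and non-coding (hg38 in the submitters' processing notes), with Segemehl, and ran BitSeq. For every transcript and library they deposited a natural log RPKM, the mean of the BitSeq posterior, and another column with the variance of that posterior.

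RPKM was taken as the exponential and summed over all transcripts of a gene. Log2(sum + 0.1) of genes with a mean of at least 1 RPKM was fitted with limma 3.58.1 (trend, R 4.3.3). The pseudocount shrinks differences of low genes. Transcripts were fitted likewise. RPM (length times RPKM, summed per gene), for genes of at least 1, were added after the data had been seen. Single values had a two-sided exact permutation test. Procedures were tested on simulated data. Equivalent reads came from the posterior variance, and estimated reads and depth (18.8 to 31.2 M reads) from genes of 1 transcript. They cover counting and assignment error only. Python 3.11.15, pandas 2.3.3 and matplotlib 3.10.9 were used.

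Members and lists were chosen with earlier results of these data known. Named genes are the 8 members, their transcripts of at least 1 RPKM, DIS3L2, called list genes or up to 4 per list with the largest absolute log2 difference among non-overlapping genes, and the 3 genes closest to RNU7-1 and SLBP. The values of 1 list gene are not reported here. SNRPD1, CPSF4 and CPSF1, the stem-loop histones, ATM and C12orf57 have reasons of their own given in the text or were preset as neighbours. Gene positions are from a GRCh37 annotation. Symbols were found for 88.2% of genes and lengths for 90.2% of transcripts. CLIP data were not analysed here.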

Additional observations from a re-analysis of the deposited data

How the results depend on the processing

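No factor passed the threshold at the gene level under any of the alternatives. RNU7-1 rested on the fewest estimated reads of the 8, at 1.72 to 10.7 a library. Whether depth or the short length of this RNA set that number was not tested. The number of genes called, 29, was 16 with a pseudocount of 0.01, 61 with 1, 6 with at least 5 RPKM, 18 without a filter, 14 with median centring, 17 with quantile normalization, 19 with tested transcripts summed, 18 with the most abundant transcript alone and 646 (72 higher, 574 lower) in RPM, which also called 2 cleavage factors and 4 histone genes. Transcripts called, 33, were 142 with a pseudocount of 1, 17 with at least 5 RPKM, 18 without a filter and 52 without trend. H2BC10 was lost with at least 5 RPKM and under the block, leaving 0 histone genes called.

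Leaving out 1 library gave 2 to 2267 genes and 2 to 4984 transcripts. The highest counts came without D391N replicate 1 (2267 genes, 4984 transcripts), which also gave 12 histone genes, 2 S phase, 2 Sm, 1 cleavage, 2 decay and 2 SLBP partner genes and 1 member transcript. Without any other single library these counts were 0. Ranges over left-out libraries were −0.097 to 0.15 for SLBP, −0.093 to 0.057 for ZNF473, −0.10 to 0.80 for RNU7-1, −0.14 to 0.76 for ENST00000419040, −0.39 to 0.093 for ENST00000519292 and −0.044 to 0.077 for ENST00000527296. ZNF473 was at 0.18 with median centring, 0.17 with quantile normalization, 0.047 with tested transcripts summed and 0.59 with the most abundant transcript, and SLBP at −0.60 with the latter.

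Replicate numbers did not pair the libraries: gene-level deviations of equal-numbered libraries had correlations of 0.070, 0.22 and −0.11. With the replicate block 2 genes and 7 transcripts were called.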
